A study of Mus musculus with 8 samples.

Results

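The genes described here make, take up, export and redistribute cholesterol, and they were followed in cultured quiescent neural stem cells (qNSCs) with and without lysosomal inhibition. They are a set of 34 genes, named for their place in the pathway. A probe that carries the gene's symbol was found on the array for 31 of the 34, out of 16390 genes named there, with 1 probe for each. Msmo1 was found under its older symbol Sc4mol. Acat2, Hmgcs1 and Fdps had no probe under their symbols and were not analysed here. Pmvk, the phosphomevalonate kinase gene, had a value on 6 of the 8 arrays and none on the first BafA array of either time. The other 30 were tested, among 14679 named genes.

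The cells were neural stem cells of 1 mouse line, grown from the ventral telencephalon of embryos, so that the values describe a single line in culture. All 4 groups had been held in quiescence medium with BMP for 3 days before treatment. The medium was then replaced by quiescence medium alone (control) or with 20 nM bafilomycin A (BafA), which blocks the proton pump that acidifies lysosomes. RNA was taken after 4 h and after 24 h, with 2 arrays for each of the 4 groups. Whether both arrays of a group stem from separate cultures is not given in the sources used here, and the p-values then reflect the spread among these samples alone, which may be technical. Values are spot signals with the median of every array set to 25, differences are on the log2 scale, and adjusted p-values are from limma over all probes tested, with a threshold of 0.05.

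The 8 arrays held 21652 to 22077 values each, and the median gene spot was 1.57 to 1.72 times as bright as the mean blank spot. Control array 1 at either time was scanned with gain slopes unlike those of the other 6 arrays. Of 10 markers of neural stem cells, 9 had a probe, and all 9 lay over the array's median on all 8 arrays. Their summed deposited value was 62010 to 62212 in control and 54607 to 56508 in BafA-treated cells at 4 h. At 24 h it was 69386 to 71695 in control and 55606 to 59195 in BafA-treated cells. Markers of other cell types also moved with time and treatment. The summed deposited value of 5 microglial markers was 217 to 256 in control and 295 to 319 in BafA-treated cells at 4 h. At 24 h this sum was 207 to 289 in control and 1117 to 1271 in BafA-treated cells. Of the 5 microglial markers, Csf1r and Cd68 lay over the array's median on all 8 arrays. The sum of 4 markers of the oligodendrocyte lineage was 354 to 551 at 4 h, and at 24 h it was 2830 to 3341 in control and 3464 to 3983 with BafA. The sum of 5 fibroblast and mural markers was 2415 to 3202 at 4 h, and at 24 h it was 497 to 512 in control and 82.2 to 86.4 with BafA. The sum of 5 neuronal markers was 205 to 242 at 4 h, and at 24 h it was 512 to 616 in control and 127 to 135 with BafA. The sum of 4 endothelial markers was 3.5 to 5.5 over the 8 arrays. The part of these shifts in the results below was not tested, and in bulk RNA fewer cells of a type and less RNA per cell cannot be told apart.

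Cells obtain cholesterol by building it from acetyl-CoA through mevalonate, squalene and lanosterol, or by taking up lipoproteins and freeing their cholesterol in lysosomes. When sterols in the membrane of the endoplasmic reticulum run low, the escort protein SCAP carries the transcription factors SREBP to the Golgi, where they are cut and released to switch on genes of synthesis and uptake. INSIG proteins hold SCAP back when sterols are plentiful, and the nuclear receptors LXR respond to oxidised sterols by switching on genes of export. Brain cells make most of their own cholesterol, since lipoproteins of the blood do not cross into the brain.

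BafA was followed by higher signals of 11 of the 30 tested genes at 4 h and of 26 at 24 h. The early rise comprised 9 enzymes of synthesis, Insig1 and the sterol carrier gene Stard4, and the later one reached every enzyme tested as well as genes of uptake, export and lysosomal release. The set was chosen with earlier results of these data known, so the shares beside all named genes are a description and not a test. At 4 h, 11 of 30 were higher against 1.29% of all named genes, and 0 of 30 were lower against 1.02%. For this 0, limma at an unadjusted p under 0.05 gave 1 lower gene (Nr1h3), and the methods' t-test at that level gave 0. At 24 h, 26 of 30 were higher against 15.0% of all named genes, and 3 of 30 were lower (Srebf1, Nr1h3 and Soat1) against 13.9%. Scap was the 1 gene that did not pass at 24 h. The median difference over the 30 was 0.32 at 4 h and 0.95 at 24 h on the log2 scale, and over all named genes it was 0.01 and 0.02. The BafA arrays lay wholly to 1 side of the control arrays for 21 of the 30 genes at 4 h (38.5% of all named genes) and for 29 at 24 h (58.9%). All 11 genes that rose at 4 h also rose at 24 h, and another 15 rose at 24 h alone by this threshold.

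These counts rest on the spot signal without the signal around the spot. When the surrounding signal was subtracted, 0 of the 30 passed at 4 h, and at 24 h Mvd, Cyp51 and Insig1 passed as the 3 higher genes and 0 were lower. With that setting 0% of all named genes passed in either direction at 4 h, and at 24 h 0.702% were higher and 0.286% lower. The surrounding signal followed the spot itself on every array (Spearman's rho of 0.958 to 0.975 across probes, which are not independent replicates) and its median was 0.745 to 0.819 of the spot. Among the 6 arrays of 1 scan setting, each control group is 1 array, which is assumed to vary like the BafA arrays. There the 4 h comparison gave 12 higher genes and 1 lower one, against 1.91% and 1.47% of all named genes, and the 24 h comparison 22 and 3, against 13.2% and 12.1%.

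**Figure D1:**
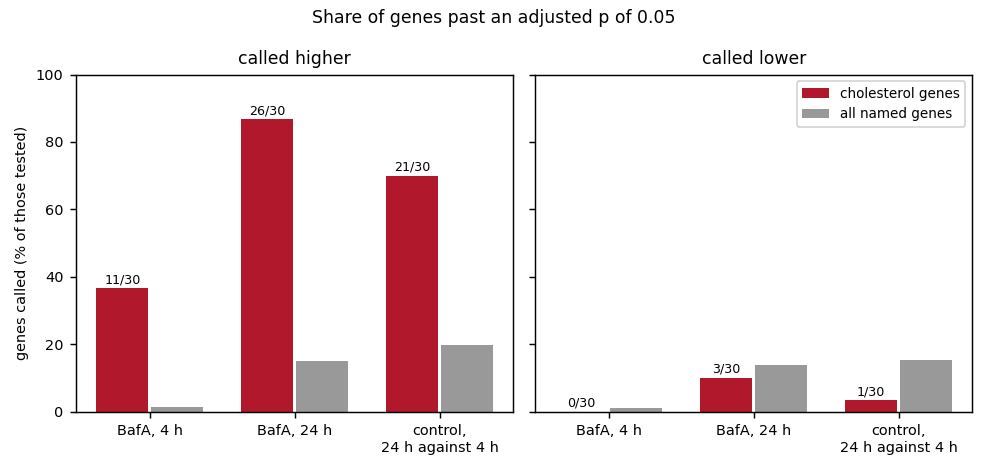
Share of genes past an adjusted p of 0.05 (limma), in percent of those tested, among the 30 cholesterol genes (red, with counts) and among all 14679 named genes (grey), for BafA at 4 h, BafA at 24 h and control at 24 h against 4 h. The red bars stand above the grey ones for higher genes in all 3 comparisons, and below them for lower genes.

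Promoters of the 5 genes that rose most at 4 h among those with an entry are shown as a description of sequence. Boxes of NF-Y and Sp1, factors known to work beside SREBP, are marked, as is the E-box. Whether any of them bears on the rise was not tested. The lines give the 150 bases before the RefSeq start of transcription, 5′ to 3′, on build GRCm38.p6. Capitals mark the letters CCAAT (the NF-Y box), GGGCGG (the Sp1 box) or CACGTG (the E-box), on either strand. Insig1 lies at chr5:28071262-28071411 on the plus strand, Msmo1 at chr8:64733579-64733728 on the minus strand, Mvd at chr8:122443423-122443572 on the minus strand, Idi1 at chr13:8885456-8885605 on the plus strand, and Cyp51 at chr5:4104698-4104847 on the minus strand.
Insig1: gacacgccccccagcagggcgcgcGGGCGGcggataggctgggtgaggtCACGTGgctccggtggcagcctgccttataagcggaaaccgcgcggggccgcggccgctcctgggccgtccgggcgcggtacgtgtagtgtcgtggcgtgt
Msmo1: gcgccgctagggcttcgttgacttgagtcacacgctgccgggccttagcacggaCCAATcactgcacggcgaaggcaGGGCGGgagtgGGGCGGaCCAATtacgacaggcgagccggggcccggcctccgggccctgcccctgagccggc
Mvd: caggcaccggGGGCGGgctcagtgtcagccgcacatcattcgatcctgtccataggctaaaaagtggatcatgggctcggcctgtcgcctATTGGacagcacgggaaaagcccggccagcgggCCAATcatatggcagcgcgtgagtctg
Idi1: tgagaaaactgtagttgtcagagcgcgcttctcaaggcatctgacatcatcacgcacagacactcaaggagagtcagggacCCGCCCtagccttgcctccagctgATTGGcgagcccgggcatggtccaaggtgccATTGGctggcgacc
Cyp51: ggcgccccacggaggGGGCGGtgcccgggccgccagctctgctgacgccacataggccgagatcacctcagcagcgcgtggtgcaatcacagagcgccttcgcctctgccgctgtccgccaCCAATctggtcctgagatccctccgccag

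Of the 34 genes, 28 have a promoter in the table, with 40 promoters in all, and motifs were searched on both strands from 250 bases before to 50 after each start. The NF-Y box CCAAT was present in 57.5% of the 40 promoters and in 37.4% of all 32851 promoters. The Sp1 box GGGCGG was present in 70.0% of the 40 and in 35.7% of all, and the E-box CACGTG in 17.5% and 7.2%. The sterol regulatory element, spelled TCACNCCAC, was found only in Hmgcs1 among the 28 genes, and in 1.2% of all promoters. Counted by gene, with a match in at least 1 promoter, CCAAT was present in 78.6% of the 28 genes and in 41.1% of all 27025 genes. By the same count GGGCGG was present in 85.7% of the 28 and in 38.2% of all. Of the 11 genes that rose at 4 h, 8 have an entry, and all 8 carry both CCAAT and GGGCGG in at least 1 promoter. Of the other 19 tested genes, 17 have an entry, of which 12 carry CCAAT and 14 carry GGGCGG. These matches are a description of letters in a window, without a test, and a window without a match says nothing of the factor.

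The route from mevalonate to squalene was followed through 4 genes. Mvk, the mevalonate kinase that opens this stretch, had signals of 38.0 and 38.1 in control and of 43.6 and 41.7 with BafA at 4 h. By 24 h its signals had become 75.3 and 76.7 in control and 164 and 195 with BafA. The 4 h groups lay apart by a small step that did not pass (0.17, SE 0.12, adjusted p = 0.803), and the 24 h groups lay far apart (1.23, SE 0.12, adjusted p = 1.25e-08).

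Mvd, the decarboxylase that yields isopentenyl diphosphate, had signals of 67.5 and 63.2 in control and of 204 and 249 with BafA at 4 h. The 24 h arrays gave 127 and 141 in control and 588 and 690.1 with BafA. BafA-treated cells were thus higher by 1.79 at the early time and by 2.25 at the late one (both SE 0.16, adjusted p = 7.93e-08 and 5.72e-11). Idi1, the isomerase that makes the other isoprene unit, had signals of 99.0 and 96.5 in control and of 314 and 324 in BafA-treated cells at 4 h. Its 24 h signals were 201 and 186 in control and 1178 and 1441 with BafA. No array of 1 group overlapped with the other at either time, and its rise at 24 h was 6.74-fold (log2 2.75, SE 0.16, adjusted p = 1.80e-12), the largest fitted among the 30 genes.

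Fdft1, squalene synthase, which commits isoprenoids to sterols, had signals of 356 and 326 in control and of 773 and 879.6 in BafA-treated cells at 4 h. The later arrays gave 609.9 and 831 in control and 1961 and 2235 with BafA. Fdft1 thus rose 2.42-fold and 2.94-fold (adjusted p = 4.73e-05 and 8.52e-08), and the difference between these effects did not pass (0.28, SE 0.24, adjusted p = 0.574).

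The steps from squalene to lanosterol moved unevenly. Sqle, squalene epoxidase, a rate-limiting oxygen-dependent enzyme, had signals of 476 and 352 in control and of 935 and 1000.3 in BafA-treated cells at 4 h. Later values were 643 and 793 in control and 2634 and 2468 with BafA, and Sqle rose at both times (1.24 and 1.84, both SE 0.17, adjusted p = 6.06e-05 and 5.13e-09). Lss, which closes the ring to lanosterol, had signals of 173 and 178 in control and of 177 and 182 in BafA-treated cells at 4 h. The Lss groups overlapped at 4 h (0.03, SE 0.16, adjusted p = 0.999). At 24 h Lss had 183 and 218 in control and 289 and 337 in BafA-treated cells, a rise of 0.64 (SE 0.16, adjusted p = 0.00273). This call for Lss was lost without control array 1 of 24 h (0.52, adjusted p = 0.0608) and among the 6 arrays of 1 scan setting (adjusted p = 0.103).

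Beyond lanosterol, 8 tested enzymes remodel the sterol ring and its side groups. Cyp51, the lanosterol demethylase, had signals of 163 and 146 in control and of 408 and 460.3 in BafA-treated cells at 4 h. The 24 h values were 261 and 371 in control and 1883 and 2184 with BafA. Its rise was 2.81-fold at 4 h and 6.51-fold at 24 h (adjusted p = 1.09e-05 and 1.63e-11). The 95% interval at 24 h, from 2.34 to 3.07, overlapped that of Idi1, from 2.42 to 3.08.

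Tm7sf2, a sterol reductase of the endoplasmic reticulum, behaved otherwise. Its signals at 4 h were 99.1 and 73.2 in control and 79.3 and 90.3 in BafA-treated cells, with overlapping groups and a difference of -0.01 (SE 0.20, adjusted p = 0.9998). By 24 h they were 498 and 287 in control and 1233 and 1164 with BafA, a rise of 1.66 (SE 0.20, adjusted p = 5.93e-07). The difference between its effects, 1.67 (SE 0.29, adjusted p = 1.64e-04), was the largest fitted among the 30 genes.

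Msmo1, the sterol methyl oxidase, had signals of 359.6 and 343 in control and of 1256 and 1327 with BafA at 4 h, and of 652 and 743 against 2167 and 2700.3 at 24 h. Its effect was almost the same at both times, 1.88 and 1.80, with a difference of -0.08 and a 95% interval from -0.54 to 0.38. Hsd17b7, a sterol ketone reductase, also kept a like effect, 1.07 and then 1.01 (adjusted p = 1.70e-04 and 1.69e-05). The interval of its difference ran from -0.51 to 0.40. The Hsd17b7 signals were 78.4 and 76.0 in control and 164 and 160.1 with BafA at 4 h, and 182 and 233 in control and 434 and 398 with BafA at 24 h. Neither gene's groups overlapped.

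Nsdhl, the dehydrogenase that works with Msmo1 to remove methyl groups, had signals of 129 and 117 in control and of 209 and 236 in BafA-treated cells at 4 h. By 24 h they were 359 and 382 in control and 1115 and 1241 with BafA, so that the groups of each time stood apart. Nsdhl rose by 0.86 at 4 h and by 1.67 later (both SE 0.16, adjusted p = 0.00259 and 1.28e-08). Its early call was lost on leaving out control array 2 or BafA array 2 of 4 h (adjusted p = 0.0693 and 0.0600).

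Sc5d, the sterol desaturase near the end of the route, had signals of 107 and 91.5 in control and of 214 and 229 in BafA-treated cells at 4 h. Later values were 125 and 149.9 in control and 549 and 608 with BafA, and Sc5d thus rose by 1.16 and 2.08 (adjusted p = 8.00e-05 and 2.55e-10). Dhcr7, the reductase that yields cholesterol from its dehydro precursor, had signals of 25.4 and 23.4 in control and of 31.9 and 36.3 in BafA-treated cells at 4 h. The Dhcr7 groups were apart, but 0.48 did not pass (SE 0.13, adjusted p = 0.0547). At 24 h Dhcr7 had 41.5 and 27.3 in control and 104 and 112 in BafA-treated cells, a rise of 1.68 (SE 0.13, adjusted p = 3.30e-10), or 3.21-fold, where the deposited ratio was 4.47. The early value of Dhcr7 was 0.57 and passed when BafA array 1 of 4 h was left out. It also passed, at an unchanged 0.48, when 1 of the 24 h control arrays was left out, which changes only the estimate of the spread. It also passed with the replicate block (adjusted p = 0.0416), with scan setting as a block (0.66, adjusted p = 6.12e-04) and among the 6 arrays (0.54). The same held in a fit of all probes with a value in every group (adjusted p = 0.0216).

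Ebp, the sterol isomerase that binds emopamil, moved least of the enzymes at 24 h. Its signals were 151 and 117 in control and 115 and 136 with BafA at 4 h, with overlap, and 202 and 249 in control and 273 and 355 with BafA at 24 h. The rise at 24 h, 0.47 (SE 0.18, adjusted p = 0.0468), was lost on leaving out control array 1 of 24 h (adjusted p = 0.311), BafA array 2 of 24 h (0.386), or control array 1 or 2 of 4 h (0.0565 and 0.0570). It was also lost with quantile normalization, without a variance trend, with scan setting as a block and among the 6 arrays (adjusted p = 0.0684 to 0.382).

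As a group, 9 of the 14 tested enzymes rose at 4 h and 14 of 14 at 24 h, and 0 fell at either time, also at an unadjusted p under 0.05. The group median was 1.11 at 4 h and 1.67 at 24 h. Pmvk had signals of 12.9 to 13.8 on the 6 arrays with a value, close to the blank spots, where a change could not be measured. In a fit that dropped its 2 missing values, it differed by -0.02 at 4 h and by -0.04 at 24 h (adjusted p = 0.9999 and 0.771).

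**Figure D2:**
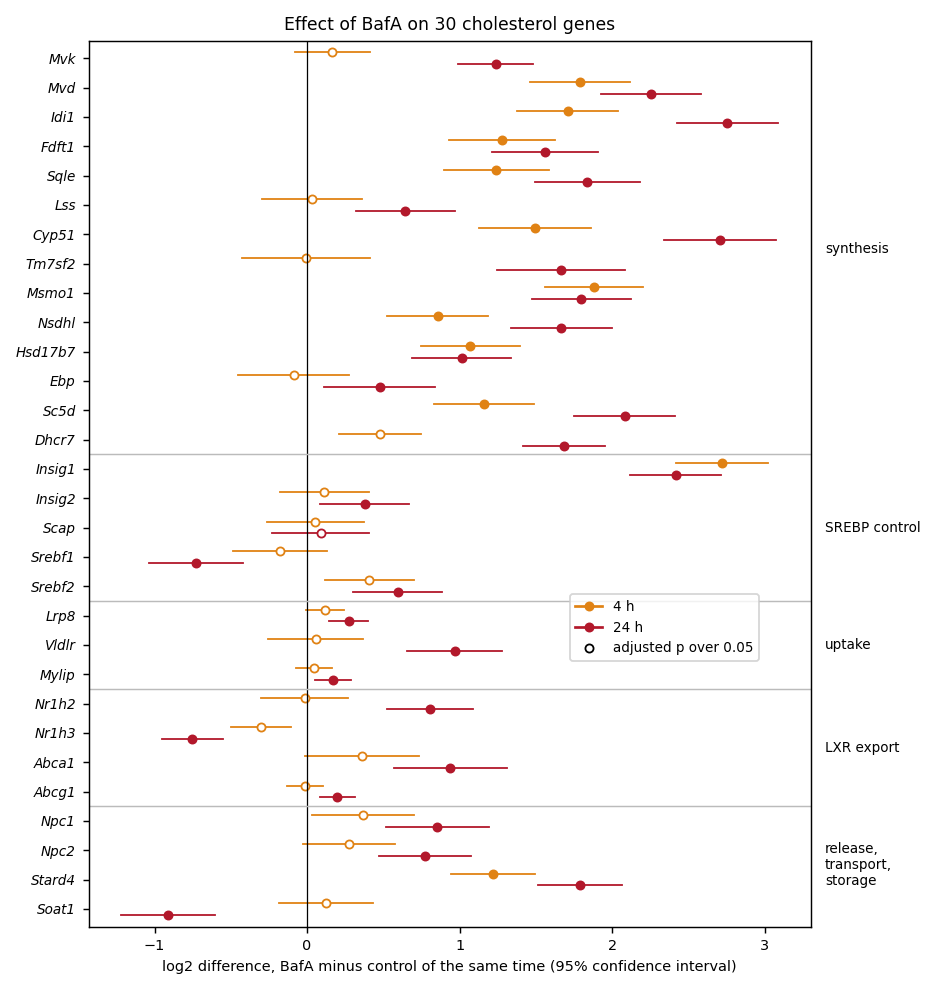
Difference between BafA-treated and control cells of the same time for the 30 tested genes, ordered by role from synthesis to storage, with 4 h in orange and 24 h in red. Points are log2 differences from limma, bars are 95% confidence intervals, and open points did not pass an adjusted p of 0.05. All 14 enzymes of synthesis lie to the right of 0 at 24 h, while Srebf1, Nr1h3 and Soat1 lie to the left.

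Among the 5 genes that control SREBP, Insig1 led. Its signals were 41.1 and 40.5 in control and 266 and 271 with BafA at 4 h, and 81.3 and 79.5 against 387 and 474 at 24 h. The groups stood far apart at both times, 6.58-fold and then 5.33-fold (log2 2.72 and 2.41, both SE 0.15, adjusted p = 1.46e-11 and 3.26e-12). In the deposited values, which carry no offset, these ratios were 9.23 and 6.27. Insig1 had the largest rise of the 30 genes at 4 h. The difference between its effects was -0.30 (SE 0.21, adjusted p = 0.429). It passed, with a smaller effect at 24 h, after quantile normalization (-0.56, adjusted p = 0.0139) and in the deposited values (-0.56, adjusted p = 0.0346).

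Insig2, the second INSIG protein gene, moved far less. Its signals were 117 and 117 in control and 122 and 132 with BafA at 4 h, and 135 and 137 in control and 169 and 184 with BafA at 24 h. Its rise of 0.38 at 24 h stood at the threshold (SE 0.14, adjusted p = 0.0495) and was lost on leaving out any single array (adjusted p = 0.0517 to 0.184) and under 3 other settings (0.0554 to 0.238). Scap, the SREBP escort, had 214 and 203 in control and 209 and 223 with BafA at 4 h, and 273 and 259.9 in control and 273 and 294 with BafA at 24 h. Its groups overlapped at both times, with differences of 0.05 and 0.09 (both SE 0.15), and the 95% interval at 24 h ran from -0.23 to 0.41.

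The pair of SREBP genes moved in opposite directions at 24 h. Srebf2, whose protein mainly drives cholesterol genes, had signals of 115 and 103 in control and of 143 and 147 with BafA at 4 h, and of 126 and 125 against 188 and 191 at 24 h. Its groups stood apart at both times, and it rose by 0.59 at 24 h (SE 0.14, adjusted p = 0.00221) and had 0.41 at 4 h (SE 0.14, adjusted p = 0.190). Srebf1, whose protein drives mainly fatty acid genes and which is itself a target of LXR, had signals of 124 and 113 in control and of 102 and 108 in BafA-treated cells at 4 h. At 24 h the Srebf1 signals were 301 and 255 in control and 174 and 160.4 in BafA-treated cells, a fall to 0.604 of control (log2 -0.73, SE 0.15, adjusted p = 4.99e-04). At 4 h its difference was -0.18 (SE 0.15, adjusted p = 0.873).

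Uptake was followed through 3 genes, none of which passed at 4 h, also at an unadjusted p under 0.05. Vldlr, a receptor for lipoproteins and for reelin, had signals of 134 and 114 in control and of 128 and 129 in BafA-treated cells at 4 h, which overlapped. Its 24 h values were 152 and 132 in control and 269.6 and 284 with BafA, a rise of 0.97 (SE 0.15, adjusted p = 1.86e-05). Lrp8, a second reelin and lipoprotein receptor, was dim, with signals of 18.5 and 18.6 in control and of 22.8 and 22.0 in BafA-treated cells at 24 h (0.27, SE 0.06, adjusted p = 0.00122). Mylip, a ubiquitin ligase that LXR switches on and that degrades such receptors, had 14.8 and 15.5 in control and 17.1 and 17.0 with BafA at 24 h (0.17, SE 0.06, adjusted p = 0.0266). The offset compresses such dim probes, and the deposited ratios at 24 h were 1.65 for Lrp8 and 1.69 for Mylip. The Mylip call was lost on leaving out control array 1 (adjusted p = 0.191), BafA array 1 (0.120) or BafA array 2 (0.106) of 24 h, and under 3 other settings (0.0927 to 0.147).

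Of the 4 genes of LXR and export, 0 passed at 4 h, with 1 lower gene (Nr1h3) and 0 higher at an unadjusted p under 0.05. The pair of LXR genes parted at 24 h. Nr1h2, the broadly expressed LXR, had signals of 56.5 and 59.0 in control and of 60.2 and 54.1 with BafA at 4 h, which overlapped, and of 72.3 and 87.3 against 122 and 158 at 24 h. It rose by 0.80 at 24 h (SE 0.14, adjusted p = 6.15e-05).

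Nr1h3, the LXR of macrophages, liver and fat, had signals of 27.9 and 30.1 in control and of 22.7 and 24.2 with BafA at 4 h, and of 54.3 and 67.0 against 34.5 and 37.2 at 24 h. The BafA arrays lay below the control arrays at both times. The fall at 24 h was to 0.594 of control (log2 -0.75, SE 0.10, adjusted p = 1.11e-06), and the deposited ratio was 0.486. The 4 h difference of -0.30 did not pass (SE 0.10, adjusted p = 0.126). It passed, at an unchanged -0.30, when control array 1 or 2 of 24 h was left out, which changes only the estimate of the spread. It also passed with the replicate block (adjusted p = 0.0278) and with scan setting as a block (-0.41, adjusted p = 0.00740). Among the 6 arrays of 1 scan setting, where the control is the 1 array left, it was -0.36 and passed.

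Abca1, the transporter that loads cholesterol onto lipid-poor apolipoproteins, had signals of 168 and 163 in control and of 203 and 222 in BafA-treated cells at 4 h. The 24 h values were 212 and 158 in control and 293 and 417 with BafA. Its groups stood apart at both times, and the rise passed at 24 h (0.94, SE 0.18, adjusted p = 2.36e-04) and not at 4 h (0.36, SE 0.18, adjusted p = 0.533). Abcg1, which exports to mature lipoproteins, was dim, with 15.1 to 15.8 over the 4 h arrays, 17.9 and 17.1 in control at 24 h and 20.8 and 19.4 with BafA at 24 h. Its rise of 0.20 at 24 h (SE 0.06, adjusted p = 0.00896) was lost on leaving out control array 2 or BafA array 1 of 24 h (adjusted p = 0.0653 and 0.135) or without a variance trend (0.0570), and its deposited ratio was 1.52.

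The last 4 genes release, carry and store cholesterol. Npc2, the soluble protein that takes cholesterol from lysosomal lipids, had signals of 1099.9 and 979 in control and of 1191 and 1323 with BafA at 4 h, and of 1542 and 1701 against 2523 and 3039.7 at 24 h. Npc1, the membrane protein that receives it, had 199 and 203 against 254 and 265 at 4 h, and 309 and 393 against 618 and 641 at 24 h. Both genes had BafA arrays above control arrays at both times, and both passed at 24 h only (Npc1 0.85, SE 0.16, adjusted p = 2.32e-04, and Npc2 0.77, SE 0.15, adjusted p = 1.93e-04). At 4 h the differences were 0.37 for Npc1 and 0.27 for Npc2 (adjusted p = 0.421 and 0.587).

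Stard4, a cytosolic sterol carrier known as a target of SREBP, had signals of 49.1 and 49.6 in control and of 109.7 and 120.1 in BafA-treated cells at 4 h. Its 24 h values were 45.7 and 42.7 in control and 133 and 175 with BafA. Stard4 thus rose 2.33-fold and 3.45-fold (adjusted p = 3.12e-06 and 1.60e-10), with deposited ratios of 2.81 and 4.54.

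Soat1, the acyltransferase that esterifies cholesterol for storage in droplets, moved the other way. Its signals at 4 h were 129.6 and 126 in control and 126 and 154 in BafA-treated cells, with overlap. By 24 h they were 196 and 189 in control and 94.3 and 111 with BafA, a fall to 0.532 of control (log2 -0.91, SE 0.15, adjusted p = 3.70e-05). Of the genes that fell at 24 h, only the stretch of Soat1 is printed. In the 150 bases before their starts, Nr1h3 held none of the boxes. The stretches of Srebf1 ranged from no box to 1 CCAAT with 2 GGGCGG. Soat1 also has GGGCGG at base 30 after its start, which is not printed. The 150 bases before the start of Soat1, at chr1:156474329-156474478 on the minus strand of GRCm38.p6, are given with the same capitals as the promoters above.
Soat1: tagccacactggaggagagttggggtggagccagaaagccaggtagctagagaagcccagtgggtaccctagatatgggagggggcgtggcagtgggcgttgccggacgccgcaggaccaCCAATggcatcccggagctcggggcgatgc

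**Figure D3:**
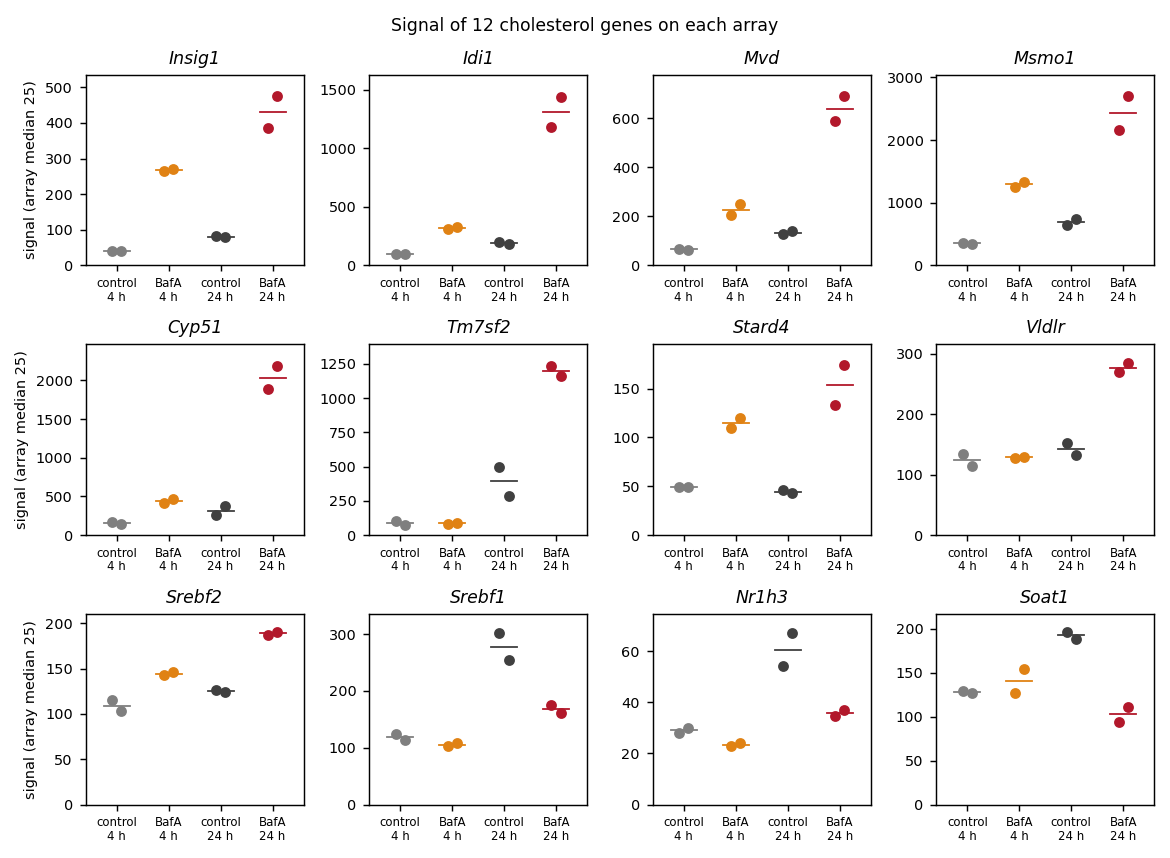
Signal of 12 of the genes on each of the 8 arrays (points) with the group mean (bars), on a linear axis from 0 that differs between panels, where the array's median is 25. Insig1, Idi1, Mvd, Msmo1, Cyp51 and Stard4 stand above control at 4 h and 24 h, Tm7sf2 and Vldlr at 24 h alone, and Srebf1, Nr1h3 and Soat1 fall below the 24 h control.

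Whether the effect of BafA changed between the times was tested as the difference of the effects in the same fit. The effect was larger at 24 h for 10 of the 30 genes (7.79% of all named genes) and smaller or more negative for 2 (8.03% of all named genes). Of the 10, Mvk (1.07), Idi1 (1.05), Cyp51 (1.21), Tm7sf2 (1.67), Nsdhl (0.81), Sc5d (0.92) and Dhcr7 (1.20) are enzymes of synthesis, and the others were Vldlr (0.91), Nr1h2 (0.82) and Stard4 (0.57). The 2 were Soat1 (-1.03, SE 0.21, adjusted p = 0.00104) and Nr1h3 (-0.45, SE 0.14, adjusted p = 0.0251). Of the 11 genes that rose at 4 h, 5 had a larger effect at 24 h and none a smaller one. Of the 15 genes higher at 24 h and not at 4 h, 5 passed this test, and for Lss, Ebp, Insig2, Srebf2, Lrp8, Mylip, Abca1, Abcg1, Npc1 and Npc2 the effects at the 2 times were not shown to differ (adjusted p = 0.0693 to 0.700). Some of these passed elsewhere, Lss under 8 alternatives (adjusted p = 0.0246 to 0.0488), Abcg1 under 3, Abca1 under 2, and Ebp and Npc2 under 1 each, as did Sqle under 2. None of the 5 SREBP control genes passed, and at an unadjusted p under 0.05 there were 0 with a larger and 1 with a smaller effect (Srebf1, -0.55, adjusted p = 0.0860), which passed under 3 alternatives (adjusted p = 0.0389 to 0.0493). Among the 6 arrays of 1 scan setting, 6 were larger and 2 smaller, and Cyp51, Nsdhl, Sc5d and Stard4 no longer passed. The count of 10 ranged from 7 to 12 as single arrays were left out. On leaving out control array 1 of 4 h, Nsdhl (adjusted p = 0.0887) and Sc5d (0.0581) were lost, as was Nsdhl on leaving out BafA array 1 of 4 h (0.0862). The calls for Stard4 (adjusted p = 0.0702 to 0.224) and Nr1h3 (adjusted p = 0.0542 to 0.132) were each lost on leaving out any of 5 single arrays. The Nr1h3 call was also lost with an offset of 10 (adjusted p = 0.140), quantile normalization (0.0672), the deposited values (0.250) and no variance trend (0.107), and the Stard4 call without a variance trend (0.0808).

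**Figure D4:**
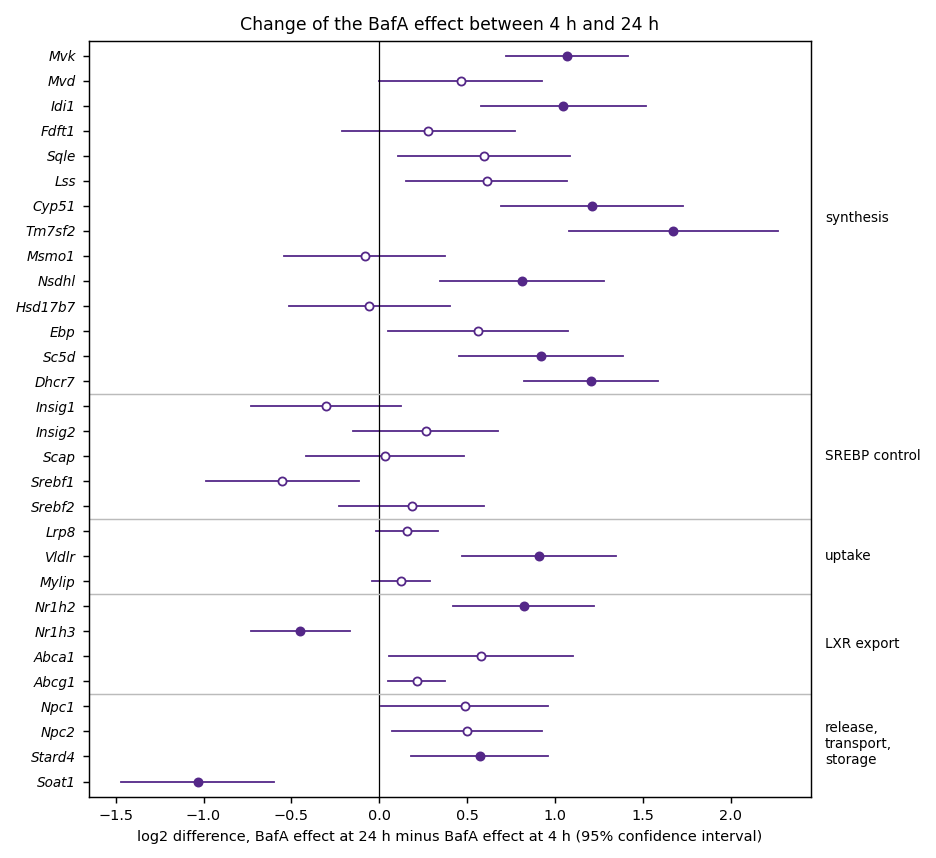
Effect of BafA at 24 h minus its effect at 4 h for the 30 tested genes, on the log2 scale, with 95% confidence intervals from limma and open points where the adjusted p was over 0.05. Tm7sf2 lies farthest to the right (1.67) and Soat1 farthest to the left (-1.03).

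The control cells themselves moved over the same time, and this comparison shares its control arrays with those above. From 4 h to 24 h in control medium, 21 of the 30 genes were higher (19.8% of all named genes) and 1 was lower (15.4% of all named genes), the latter being Mylip (-0.29, SE 0.06, adjusted p = 3.03e-04). The median of the 30 was 0.70, and that of all named genes 0.01. Of the 14 enzymes, 13 were higher, from 0.46 (Dhcr7 and Sc5d) to 2.15 (Tm7sf2, SE 0.20, adjusted p = 1.32e-08), and Lss did not pass (0.19, SE 0.16, adjusted p = 0.413). The control change was 1.23 for Srebf1 (SE 0.15), 1.06 for Nr1h3 (SE 0.10) and 0.59 for Soat1 (SE 0.15), beside BafA effects at 24 h of -0.73, -0.75 and -0.91 that use the same 24 h control arrays. The control call for Soat1 was lost among the 6 arrays of 1 scan setting (adjusted p = 0.0594). Their BafA arrays at 24 h lay between the 2 control groups for Srebf1 and Nr1h3, and below both for Soat1. Stard4 (-0.16, SE 0.13, adjusted p = 0.408), Vldlr (0.19), Abca1 (0.14) and Srebf2 (0.20) did not pass in this comparison. In the deposited values, the ratio of 24 h to 4 h was 0.442 for Mylip and 1.80 for Abcg1, against 0.819 and 1.12 on the offset scale. Single arrays decided the control calls of Sc5d, Dhcr7, Ebp, Nr1h2 and Abcg1. Without the second control array of 4 h, Ebp (adjusted p = 0.0646), Sc5d (0.243), Dhcr7 (0.0851) and Abcg1 (0.0687) no longer passed. Without the first control array of 4 h, Nr1h2 (0.0903) and Abcg1 (0.105) were lost. Without the first control array of 24 h, Dhcr7 (0.299) and Abcg1 (0.148) were lost, and without the second, Sc5d (0.259) and Nr1h2 (0.103). Under other settings Dhcr7 was lost 3 times (0.0506 to 0.218) and Abcg1 2 times (0.0861 to 0.261), and Scap was gained 5 times (0.00681 to 0.0421).

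Other genes of the pathway were taken from lists of 78 genes, of which 68 were tested. These 68 were fitted in the main setting only, and their calls were not tried under the alternatives or with arrays left out. Of these, 5 were higher and 0 lower at 4 h, and 17 were higher and 11 lower at 24 h, where 1.29% and 1.02% of all named genes were higher and lower at 4 h, and 15.0% and 13.9% at 24 h. Their median difference was 0.02 at both times. Among 13 other genes of synthesis, 3 were higher at 4 h and 8 higher and 2 lower at 24 h. Aacs, which activates acetoacetate for sterol and fatty acid synthesis, had signals of 102 and 96.0 in control and of 169 and 193 with BafA at 4 h, and of 189 and 218 against 727 and 623 at 24 h. It rose by 0.86 and 1.73. Por, the reductase that supplies Cyp51 and Sqle with electrons, rose by 0.59 and 1.56 (adjusted p = 0.0428 and 2.41e-08). Acat1, by its symbol a mitochondrial thiolase that works on acetoacetyl-CoA, had signals of 673 and 547 in control and of 293 and 332 with BafA at 24 h, a difference of -0.96 (SE 0.18, adjusted p = 1.49e-04). Lbr, which shares the reductase activity of Tm7sf2, rose by 0.28 and 0.58 (adjusted p = 0.0224 and 2.44e-07).

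Among 15 other genes of SREBP control, 2 were higher at 4 h (1.29% of all named genes). At 24 h 3 of these were higher and 1 lower (15.0% and 13.9% of all named genes). Rnf145, a sterol-responsive ubiquitin ligase that acts on SCAP, had signals of 88.1 and 86.6 in control and of 146 and 158 with BafA at 4 h, and of 94.9 and 103 against 607 and 498 at 24 h. Its groups lay apart at both times, and its effect grew from 0.80 to 2.48 (adjusted p = 3.55e-06 for the difference). Ube2g2, a conjugating enzyme of degradation at the endoplasmic reticulum, rose by 0.62 and 0.82, and the lower gene was Spring1 (-0.30, adjusted p = 0.00981). Among 10 other uptake genes, 0 passed at 4 h, and 2 were higher and 1 lower at 24 h, beside the same shares of all named genes. The lower uptake gene was Sorl1 (-0.78, SE 0.13, adjusted p = 6.22e-05), a sorting receptor of the lipoprotein receptor family.

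Among 16 other genes of LXR and export, 0 passed at 4 h. At 24 h 0 were higher and 4 lower (15.0% and 13.9% of all named genes). The lower genes were the sterol exporter Abcg4 (-0.62, adjusted p = 1.78e-07), Cyp7b1 (-0.70, adjusted p = 3.50e-06), which hydroxylates oxysterols, Apoe (-0.53, adjusted p = 1.89e-04) and Apoc1 (-0.43, adjusted p = 8.48e-06). Apoe was bright, with signals of 9293 and 8276 in control and of 5882 and 6249 with BafA at 24 h. The signals of Abcg4, Cyp7b1 and Apoc1 were dim, from 17.2 to 39.6 at 24 h. Among 14 other genes of lysosomal release and transport, 0 passed at 4 h, and 4 were higher and 3 lower at 24 h, beside the same shares. Tmem97, a membrane protein that binds NPC1, had signals of 71.7 and 71.0 in control and of 209 and 231 in BafA-treated cells at 24 h, against 52.9 and 49.2 in control and 52.8 and 52.3 with BafA at 4 h. Its rise was thus seen at 24 h (1.62, adjusted p = 1.78e-10). Nceh1, a hydrolase of cholesterol esters, rose by 0.91 at 24 h (adjusted p = 4.08e-05). The 3 lower genes were the lipid transfer protein genes Stard3 (-0.49, adjusted p = 0.0181), Stard5 (-0.42, adjusted p = 0.00226) and Gramd1c (-0.25, adjusted p = 0.00161). Of these, Stard5 and Gramd1c were dim. At 24 h Stard5 had 31.3 and 22.7 in control and 21.7 and 18.2 with BafA, and Gramd1c 17.4 and 17.3 in control and 15.0 and 14.1 with BafA.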

How the data were processed

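RNA of the 4 groups of qNSCs was hybridised to 8 Cy5 oligonucleotide arrays of 1 colour, 2 for each group. The authors deposited the intensity of every spot and of its surround from each scanner output, linear and not normalized. They also deposited a table of signal values, scaled to a median of 25 per array. Set against the spots, these values are the spot minus the mean of the blank spots, and probes not clearly above the blanks are empty. On control array 1 of 4 h, for example, the lowest spot with a value was 64.8, where the blanks averaged 63.2 (SD 1.2). Gene names were taken from the platform annotation, which names 16631 of 23473 probes, and 3947 symbols were updated through synonyms.

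Spot intensities were corrected in R 4.3.3 with limma 3.58.1 by normexp (offset 50, all spots, no surround), control spots were dropped, and arrays were scaled to a median of 25. Folds of dim probes are compressed by the offset. Log2 values were fitted for the 20473 probes measured on all 8 arrays, with 1 coefficient per group and eBayes with a trend (4 residual and 19.3 prior degrees of freedom). In the fit of the 6 arrays of 1 scan setting, with 2 residual degrees of freedom, the prior ones were unlimited. A probe's own spread did not enter its p-values there. P-values were adjusted by Benjamini-Hochberg over all probes. Where a gene has several probes, the brightest stands for it. With 2 arrays a side, the smallest two-sided p of an exact permutation test is 0.33, so none is printed. Promoters are from RefSeq (GRCm38.p6), read with Python 3.11.15.

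Genes were named by role, with values by array for those the results turn on and for every gene of the 34 that fell. The members and lists were chosen with earlier results of these data known. Alternatives changed the background correction, offset, normalization, variance trend, filters, blocks, test and the arrays included, and the test was tried on simulated data. The number of arrays limits the precision. The authors' table of fold changes and p-values was not used.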

Additional observations from a re-analysis of the deposited data

Results flagged for a closer look

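In 12 of the 30 tested genes the effect of BafA at 24 h differed from that at 4 h by the test of the difference itself (limma, adjusted over all probes). Among all named genes 15.8% passed this test, 7.79% with a larger effect and 8.03% with a smaller or more negative one. The effect at 24 h was larger for the synthesis genes Mvk (1.07), Idi1 (1.05), Cyp51 (1.21), Tm7sf2 (1.67), Nsdhl (0.81), Sc5d (0.92) and Dhcr7 (1.20), all on the log2 scale. It was also larger for the lipoprotein receptor gene Vldlr (0.91), the LXR gene Nr1h2 (0.82) and the sterol carrier gene Stard4 (0.57). For the LXR gene Nr1h3 (-0.45) and the esterifying enzyme gene Soat1 (-1.03) the effect was lower at 24 h. The calls for Nr1h3 and Stard4 were each lost on leaving out any of 5 single arrays. Those for Cyp51, Nsdhl and Sc5d were lost under fewer settings, the fit with the surround subtracted aside. With 2 arrays per group, no group was large enough for a search for outlying arrays.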

How the results depend on the processing

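For the 30 tested genes, values that passed in the main setting or in an alternative kept their direction, except with the surround subtracted. Of values that passed in neither, 20 turned sign with the surround subtracted and 13 under 1 or more other settings, such as Tm7sf2 at 4 h (-0.01, and 0.30 with scan setting as a block), Lss at 4 h (0.03, and -0.04 with that block) and Ebp at 4 h (-0.09, and 0.10 among the 6 arrays of 1 scan setting). The fit with the surround subtracted gave 0 higher at 4 h, and 3 higher and 0 lower at 24 h. It gave 0 and 0 for the difference of the effects, and 0 and 0 for control at 24 h against 4 h. In the same order it called 0% and 0%, 0.702% and 0.286%, 0.0204% and 0%, and 0.0341% and 0% of all named genes. It also turned the sign of Hsd17b7 at 4 h (-0.15), Abcg1 at 24 h (-0.16), and Nr1h2 (-0.22), Npc1 (-0.48) and Npc2 (-0.041) in control, and the cause was not tested. The methods' t-test, on 2 arrays against 2, called 16 higher and 0 lower at 4 h, 20 and 3 at 24 h, and 17 and 0 in control at an unadjusted p under 0.05, where 4.23% and 3.55%, 11.6% and 9.64%, and 14.9% and 12.1% of all named genes passed. After Benjamini-Hochberg it called 0 of the 30 in each direction in all 3 comparisons, and 0 to 1 of all 14679 named genes. With single arrays left out, 10 to 12 genes were higher and 0 to 1 lower at 4 h, 22 to 25 higher and 3 lower at 24 h, 7 to 12 larger and 1 to 2 smaller in the difference, and 17 to 21 higher and 1 lower in control. One gene, Nr1h3, was lower at 4 h with scan setting as a block (1), among the 6 arrays of 1 scan setting (1) and with the replicate block (1). Dhcr7 was gained as a higher gene at 4 h under the same 3 settings. Among the 6 arrays, 6 genes had a larger effect at 24 h. The difference was smaller for 1 gene with an offset of 10. With a mean signal over 25 required, 0 were lower in control, since Mylip was no longer tested.

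The labels give the 2 arrays of each group the numbers 1 and 2, and no source says that a number marks a shared culture or day. The correlation of the deviations of same-numbered arrays was -0.22 between control and BafA at 4 h and 0.05 at 24 h, 0.29 between the control groups and 0.32 between the BafA groups of the 2 times, and -0.08 and 0.03 for the other pairs of groups, so the numbers were not taken to pair the arrays. With the replicate block, 12 genes were higher and 1 lower at 4 h, 26 and 3 at 24 h, 10 and 2 in the difference, and 21 and 1 in control. In the same order it called 1.52% and 1.29%, 16.2% and 14.8%, 8.78% and 8.93%, and 21.2% and 16.1% of all named genes. With the numbers crossed, a setting chosen after seeing the data, the counts were 11 and 0, 26 and 3, 11 and 1, and 22 and 1. The shares of all named genes were then 0.906% and 0.402%, 16.2% and 14.5%, 8.01% and 8.05%, and 20.7% and 16.8%. None of the 30 genes has several probes, so a median over probes gave nothing to compare. Dim probes limit what could be seen, as for Pmvk, Abcg1, Mylip and Lrp8.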
